A study of Rattus norvegicus with 12 samples.

Results

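The receptor for advanced glycation end products (RAGE, gene Ager) and 9 genes grouped with it as ligand genes were examined in kidneys of 2 rat models of renal fibrosis. Binding of their proteins to RAGE was not measured. The ligand genes were S100a4, S100a6, S100a8, S100a9, S100a10, S100a11, S100b, Hmgb1 and Lgals3. The set was taken by gene symbol, and it was chosen with earlier results of these data known. Each of the 10 symbols had a single entry in each of 2 tables of FPKM (fragments corrected for transcript length and library size), 10 of 22132 entries in one and 10 of 32623 in the other. All 10 reached the minimum level for a test in both tables (0.5 FPKM or more in 3 or more of the 6 samples), among 15029 and 15043 entries tested, and S100a8 did so in the first table through the adenine group alone. A gene that reached this minimum in no control kidney had to be higher in the injured group to be tested at all.

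RNA came from 12 wild-type male SD rats, 3 in each of 4 groups, bought at 8 weeks of age and kept for 7 days before the experiment. The adenine group was given 220 mg/kg of adenine daily by gavage over 3 weeks, and the control group saline over the same time. In the UUO group (unilateral ureteral obstruction) the left ureter was ligated and kidneys were taken 2 weeks later, and the sham group underwent the operation without ligation. All rats were of 1 sex, each model was sampled at 1 time, the labels do not say which kidney was sequenced, and each library is 1 rat.

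RAGE is a cell surface receptor of the immunoglobulin superfamily. It binds glycated proteins, several small calcium-binding S100 proteins and the nuclear protein HMGB1 when these are released from cells, and it signals through the formin encoded by Diaph1 towards NF-kappaB and MAP kinases. S100 proteins also have tasks inside cells, such as binding annexins and cytoskeletal proteins, and S100A8 with S100A9 and HMGB1 are also ligands of the receptor TLR4. In the body RAGE is most abundant in lung alveolar epithelium, and in kidney it is known from podocytes, endothelium and tubules, above all in diabetic nephropathy.

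The 250 bases before the transcription start are shown for 6 of the 10 genes, to set the S100 genes that rose in both models beside Hmgb1 and the receptor gene, whose changes were smaller. The sequences are from RefSeq on assembly GRCr8, written 5′ to 3′ on the strand of the gene, and 7 of the 10 genes were matched in the promoter table of 33469 entries. Capitals mark matches on either strand to the TATA box core TATAAA, to the CCAAT box (CCAAT) or to the Sp1 core motif GGGCGG.
S100a4, chr2:178388279-178388528, plus strand: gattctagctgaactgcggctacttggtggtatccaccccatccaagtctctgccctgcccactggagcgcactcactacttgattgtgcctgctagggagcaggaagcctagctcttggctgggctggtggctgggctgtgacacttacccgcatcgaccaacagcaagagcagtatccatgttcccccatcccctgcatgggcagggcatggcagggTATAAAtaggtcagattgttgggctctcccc
S100a6, chr2:178398287-178398536, plus strand: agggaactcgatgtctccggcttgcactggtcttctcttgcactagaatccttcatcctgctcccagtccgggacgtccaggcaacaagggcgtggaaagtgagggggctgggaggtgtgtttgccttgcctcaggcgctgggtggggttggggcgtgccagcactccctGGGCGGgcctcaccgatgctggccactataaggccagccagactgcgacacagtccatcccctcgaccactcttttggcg
S100a9, chr2:178490623-178490872, minus strand: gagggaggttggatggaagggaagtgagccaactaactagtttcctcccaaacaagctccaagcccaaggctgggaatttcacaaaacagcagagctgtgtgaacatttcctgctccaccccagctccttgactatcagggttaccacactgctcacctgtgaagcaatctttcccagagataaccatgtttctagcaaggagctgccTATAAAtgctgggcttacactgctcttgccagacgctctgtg
S100a11, chr2:181874882-181875131, plus strand: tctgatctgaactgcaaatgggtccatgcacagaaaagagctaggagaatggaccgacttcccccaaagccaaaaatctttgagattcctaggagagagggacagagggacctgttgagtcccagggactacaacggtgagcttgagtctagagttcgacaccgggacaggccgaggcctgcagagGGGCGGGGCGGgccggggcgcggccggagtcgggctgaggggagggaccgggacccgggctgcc
Hmgb1, chr12:11008986-11009235, plus strand: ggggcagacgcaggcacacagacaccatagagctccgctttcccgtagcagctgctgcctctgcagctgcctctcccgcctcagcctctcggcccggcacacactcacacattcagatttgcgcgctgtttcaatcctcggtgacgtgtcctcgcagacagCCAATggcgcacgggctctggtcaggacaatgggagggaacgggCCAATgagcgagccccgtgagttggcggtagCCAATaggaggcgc
Ager, chr20:4155686-4155935, minus strand: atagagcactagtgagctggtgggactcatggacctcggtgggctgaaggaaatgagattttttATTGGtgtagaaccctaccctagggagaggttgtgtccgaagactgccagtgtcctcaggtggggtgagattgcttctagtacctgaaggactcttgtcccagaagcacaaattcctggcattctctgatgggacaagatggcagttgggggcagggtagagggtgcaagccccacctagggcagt
S100a4 and S100a9 each held 1 TATAAA, starting 31 and 42 bases before the start, and 12.9% of all promoter windows held this motif. S100a6 held 1 GGGCGG and S100a11 held 2 that overlap, a motif in 30.5% of windows. Hmgb1 held 3 CCAAT on its own strand, Ager 1 on the opposite strand and S100b 3, a motif in 34.0% of windows. None of the 7 windows held TGANTCA (AP-1) or TTGCNNAA (C/EBP), found in 6.34% and 9.22% of windows. These letters are a description of the windows and not evidence of binding.

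Each model was compared with its own control group by limma on log2(FPKM + 0.1), and log2 fold changes below are on that scale. A gene is said to rise or fall where its p, adjusted over all tested entries of the table, was under 0.05, and to be a differentially expressed gene (DEG) where the absolute log2 fold change was also at least 2. Under adenine 6 of the 10 genes were upregulated DEGs, against 10.7% of all tested entries, and 7 rose, against 39.6% of all tested entries. Those 7 (Lgals3 and the S100 genes other than S100b) had all adenine samples above all control samples, which held for 45.0% of tested entries. After UUO 8 of the 10 were upregulated DEGs, against 13.2%, and all 10 rose and did not overlap between groups, against 56.1% and 60.0%. No member fell in either model, against 19.9% and 14.4% of tested entries. These shares describe the background and are not a test, as the set was chosen with earlier results of these data known. The median log2 fold change of the 10 genes was 2.33 under adenine and 3.24 after UUO, where the median of all tested entries was 0.30 and 0.62. Without S100a8, which was tested in the adenine table through the adenine group alone, 6 of 9 rose under adenine with a median of 2.02. These shifts of all entries were 0.01 and 0.03 after scaling each table by median-of-ratios, under which the medians of the 10 genes were 2.03 and 2.67. Since the libraries are whole tissue, fewer or more cells of a type and less or more RNA per cell cannot be told apart.

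The summed levels of tubule cell markers were high in control and sham kidneys and lower in both models, though not every marker fell. Summed FPKM of 7 proximal tubule markers (highest Miox, Slc34a1 and Slc22a6) was 1423 to 2486 in control, 46.4 to 269.9 in adenine, 1589 to 2315 in sham and 103 to 277 in UUO kidneys. Of the 7, 4 fell in each model, 2 under adenine and 3 after UUO did not pass, and Slc5a12 (named after its values were seen) rose under adenine, from an FPKM of 1.81, 0.0254 and 0.362 in the control group to 3.22, 10.7 and 12.5 in the adenine group. The summed FPKM of 7 markers of later tubule segments (highest Umod, Calb1 and Slc12a1) was 1617 to 2372, 216 to 454, 2609 to 3287 and 141 to 286 in the same order, and 4 of 7 fell under adenine and 7 of 7 after UUO. Endothelial markers summed to 68.1 to 76.2, 27.5 to 39.4, 71.6 to 93.2 and 126 to 143. Control 2 stood apart in podocyte markers (Podxl and Nphs1 among the most abundant), with a summed FPKM of 30.5 against 140.3 in control 1 and 193 in control 3. Adenine 1 and UUO 1 stood apart in fat cell markers, described with S100b below. Without control 2 the adenine model had 6 DEGs and 7 rises among the 10 genes. Without adenine 1 it had 6 DEGs, 7 rises and a fall of Ager, and without UUO 1 the UUO model had 8 DEGs and 10 rises.

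**Figure D1:**
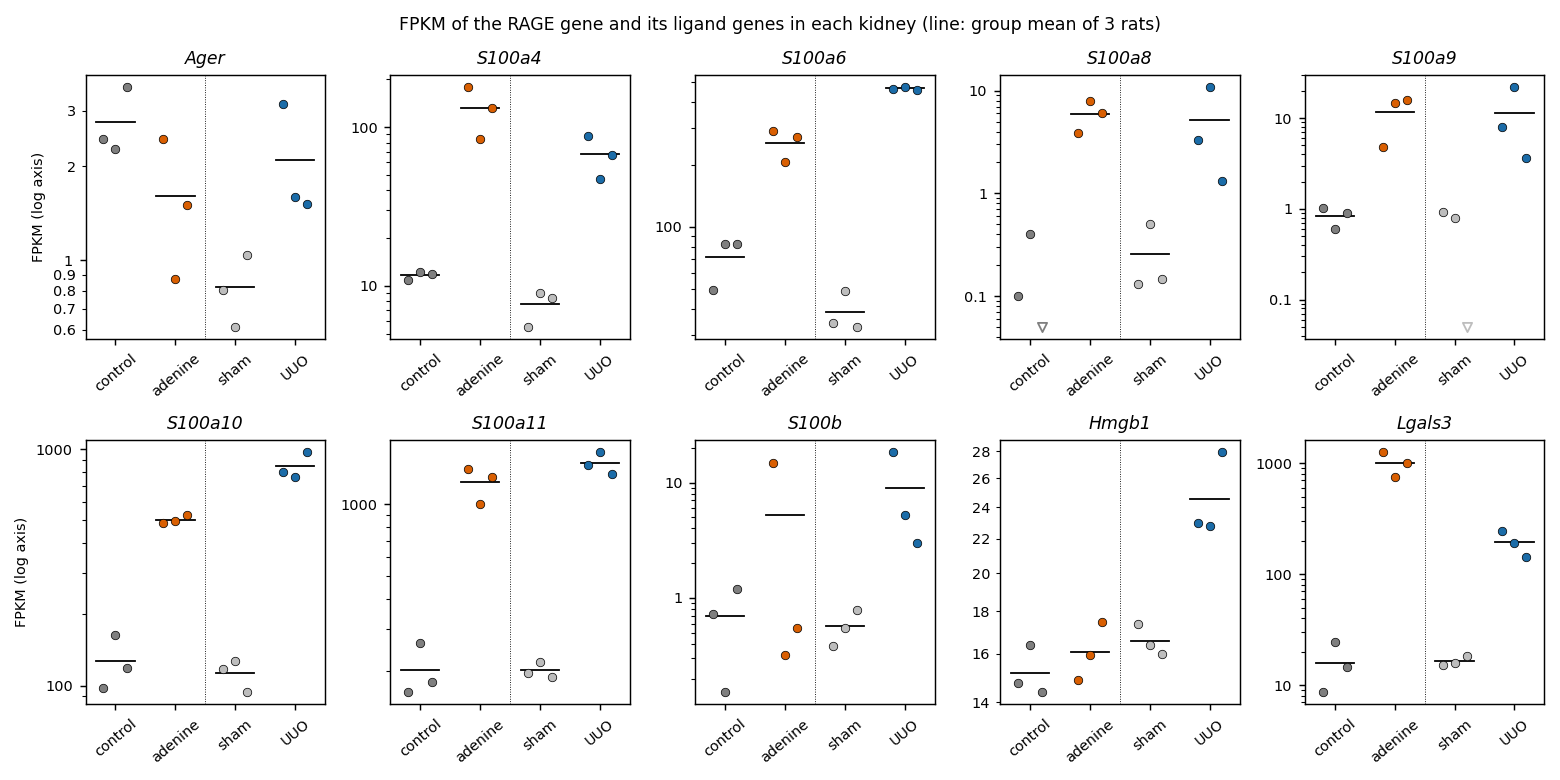
FPKM on a log axis of Ager and the 9 genes grouped with it as ligand genes in each of the 12 kidneys (points), with the mean of 3 rats as a line where all 3 values are at least 0.05, and open triangles for values under 0.05 (S100a8 in control 3, S100a9 in sham 3). The adenine samples lie above the control samples for 7 genes and overlap them for Ager, S100b and Hmgb1, whereas the UUO samples lie above the sham samples for all 10.

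The receptor gene Ager was the member with the lowest mean FPKM in both injured groups, and its direction differed between the models. Its FPKM was 2.44, 2.26 and 3.59 in the control group and 2.44, 0.872 and 1.50 in the adenine group, with means of 2.76 ± 0.722 and 1.61 ± 0.790 (SD, n = 3). The groups overlapped through adenine 1, and the log2 fold change was -0.83 (SE 0.38, 95% interval -1.74 to 0.08, adjusted p = 0.102). Without adenine 1 the log2 fold change was -1.17 and passed the test (adjusted p = 0.0287), as it did under median-of-ratios scaling (-1.11, adjusted p = 0.0437) and quantile normalization (-1.38, adjusted p = 0.0252). It did not pass under the other 12 of 15 alternatives. Among these it was -0.57 with FPKM rescaled to the same sum (adjusted p = 0.224), -0.48 without adenine 2 (adjusted p = 0.255) and -0.63 without control 3 (adjusted p = 0.258).

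After UUO the level of Ager moved the other way. Its FPKM was 0.804, 0.612 and 1.04 in the sham group and 3.16, 1.60 and 1.52 in the UUO group, with means of 0.819 ± 0.216 and 2.09 ± 0.926 (SD, n = 3). All UUO kidneys were above all sham kidneys, and Ager rose by a log2 fold change of 1.20 (SE 0.35, 95% interval 0.37 to 2.03, adjusted p = 0.0184). The rise did not pass under median-of-ratios scaling (0.65, adjusted p = 0.152), quantile normalization (0.32, adjusted p = 0.448), without sham 2 (1.03, adjusted p = 0.0581) or with all entries tested (adjusted p = 0.0876). Without UUO 1, the highest sample, the rise was 0.88 and only just passed (adjusted p = 0.0474). The control level of Ager was above the sham level and overlapped the UUO level, in tables that were normalized separately, so no test was made across them. Markers of lung alveolar epithelium were at or near 0, with a summed FPKM of 4 markers of at most 1.11 in any kidney and Cldn18 at the lowest value of the table in all sham and UUO kidneys. Which kidney cells held the Ager RNA was not tested.

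S100a8 and S100a9 encode the 2 subunits of calprotectin, a protein of neutrophils and early monocytes, and both were DEGs in both models from low control levels. S100a8 had an FPKM of 0.0994 in control 1 and 0.402 in control 2, was listed at 0 in control 3, and reached 3.88, 7.97 and 6.07 in the adenine group. All adenine samples were above all control samples, and S100a8 rose by a log2 fold change of 4.76 (SE 0.60, adjusted p = 0.000716), a value that was 2.55 with a pseudocount of 1 and 6.23 with one of 0.01. After UUO its FPKM was 0.130, 0.501 and 0.148 in the sham group and 3.28, 10.97 and 1.32 in the UUO group. UUO 2 was the highest and UUO 3 the lowest of the obstructed kidneys, all of them above sham, and S100a8 rose by 3.53 (SE 0.77, adjusted p = 0.00562), or 1.98 with a pseudocount of 1. Of the sham kidneys only sham 2 reached the minimum for a test, and only just, so the test rested largely on the UUO group. With all entries tested the adjusted p was 0.0471.

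S100a9 had an FPKM of 1.03, 0.593 and 0.893 in the control group and 4.82, 14.8 and 15.6 in the adenine group. Adenine 1 was the lowest of its group for both subunits, and S100a9 rose by a log2 fold change of 3.51 (SE 0.47, adjusted p = 0.000943). After UUO its FPKM was 0.915 in sham 1 and 0.795 in sham 2, was listed at 0.0001, the lowest value of that table, in sham 3, and was 8.04, 22.2 and 3.61 in the UUO group. The UUO samples had the same order as for S100a8, and S100a9 rose by 4.29 (SE 1.03, adjusted p = 0.00844), which was 3.20 without sham 3 and 2.71 with a pseudocount of 1, and did not pass with all entries tested (adjusted p = 0.0628). The ratio of S100a9 to S100a8 FPKM was 1.24, 1.86 and 2.57 in the adenine group and 2.45, 2.03 and 2.74 in the UUO group, so S100a9 was the more abundant subunit per length in every injured kidney. At low levels S100a9 was also the higher in uninjured kidneys other than sham 3. The ratio was 10.3 and 1.48 in control 1 and 2 and 7.02 and 1.59 in sham 1 and 2.

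The summed level of other neutrophil genes was low and higher in both injured groups, and the part of neutrophils in the calprotectin results was not tested. The summed FPKM of 9 neutrophil markers was 0.678 to 1.96 in control, 8.26, 7.08 and 5.77 in adenine 1, 2 and 3, 0.585 to 1.10 in sham and 36.2, 25.9 and 4.64 in UUO 1, 2 and 3. UUO 3 was the lowest of its group in this sum and for S100a8 and S100a9, whereas adenine 1, the lowest of its group for S100a8 and S100a9, was the highest in this sum. Of these markers 2 were tested in the adenine table and 3 in the UUO table, and all of those rose, with the rest too low to test. Both in the adenine table, and Csf3r and Cxcr2 in the UUO table, reached the minimum for a test through the injured group alone, so a rise was to a large degree set by that minimum. After UUO the markers tested were Fcnb (ficolin-B) at an FPKM of 30.2, 20.5 and 2.28 in the UUO group, Csf3r, the granulocyte colony-stimulating factor receptor, at 1.32 to 3.18 and the chemokine receptor Cxcr2 at 0.660 to 1.55. Fcnb alone thus made up most of the sum in UUO 1 and UUO 2. Elane, which encodes neutrophil elastase, was at the lowest value of the table in all sham and UUO kidneys.

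S100a4, known as fibroblast-specific protein and present in fibroblasts and leukocytes, was a DEG in both models. Its FPKM was 10.9, 12.3 and 11.8 in the control group and 180.5, 84.8 and 132 in the adenine group, with means of 11.7 ± 0.692 and 133 ± 47.9 (SD, n = 3). Its FPKM was 5.50, 9.02 and 8.36 in the sham group and 88.4, 47.3 and 66.7 in the UUO group, with means of 7.62 ± 1.87 and 67.5 ± 20.6. S100a4 rose by a log2 fold change of 3.43 under adenine (SE 0.26, adjusted p = 0.000103) and 3.11 after UUO (SE 0.27, adjusted p = 0.000103), and every injured kidney was far above every control kidney. The summed FPKM of fibroblast markers (highest Col3a1, Dcn and Col1a1) was also higher in both models. It was 82.2 to 119 in control and 587, 784 and 740 in adenine 1, 2 and 3. It was 81.8 to 112 in sham and 2634, 1902 and 1152 in UUO 1, 2 and 3. All 8 tested markers passed under adenine and all 9 after UUO, 7 of which reached the minimum in a sham kidney. Adenine 1 was the highest of its group in S100a4 and the lowest in this sum, and adenine 2 the reverse. UUO 1 was the highest of its group in both. The part of fibroblasts in the S100a4 result was not tested.

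S100a6 (calcyclin), S100a10 and S100a11 were the most abundant S100 genes of the set, and S100a11 had the highest mean FPKM of the 10 genes in all 4 groups. Outside the set S100a1, described below, had a mean FPKM of 114.5 in control and 97.2 in sham kidneys, above that of S100a6 in both. S100a6 had an FPKM of 49.8, 82.9 and 82.9 in the control group and 290.1, 206 and 271 in the adenine group, a rise of 1.85 (SE 0.24, adjusted p = 0.000761) that was below the size of a DEG, though it reached 2.00 without adenine 2 and 2.12 with FPKM rescaled to the same sum. After UUO it had an FPKM of 34.4, 48.9 and 32.9 in the sham group and 462, 476 and 461 in the UUO group, a rise of 3.61 (SE 0.15, adjusted p = 1.26e-05). The obstructed kidneys were nearly alike in S100a6, with a highest value of 1.03 times the lowest, against 1.41 times in the adenine group.

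S100a10 encodes p11, the partner of annexin A2 in a complex at the cell surface that binds plasminogen. Its FPKM was 97.4, 164 and 119 in the control group and 486, 499 and 525 in the adenine group, and it rose by a log2 fold change of 2.02 (SE 0.20, adjusted p = 0.000248), just above the size of a DEG, and 1.72 under median-of-ratios scaling, 1.85 without control 1 and 1.99 without control 3 or adenine 3. Its FPKM was 117, 128 and 93.6 in the sham group and 797, 765 and 975 in the UUO group, a rise of 2.91 (SE 0.15, adjusted p = 1.85e-05). Anxa2, the gene of its partner, rose by 3.08 under adenine (SE 0.25, adjusted p = 0.000136) and by 3.23 after UUO (SE 0.08, adjusted p = 5.37e-06). The ratio of S100a10 to Anxa2 FPKM was 1.84 to 2.31 in control and 0.874 to 1.12 in adenine kidneys, and 1.32 to 1.64 in sham and 1.09 to 1.44 in UUO kidneys, so it was lower in all adenine samples than in all control samples and overlapped between sham and UUO.

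S100a11 (calgizzarin) had an FPKM of 163, 262 and 179 in the control group and 1405, 1006 and 1301 in the adenine group, with means of 202 ± 53.3 and 1237 ± 207 (SD, n = 3). Its FPKM was 196, 219 and 188 in the sham group and 1458, 1658 and 1344 in the UUO group, with means of 201 ± 16.2 and 1487 ± 159. S100a11 rose by a log2 fold change of 2.63 under adenine (SE 0.22, adjusted p = 0.000154) and 2.88 after UUO (SE 0.12, adjusted p = 1.16e-05). Control 2 was the highest control kidney for S100a10, S100a11 and Lgals3, and it was also low in podocyte markers. Together the 7 S100 members made up 0.0558% to 0.0898% of all FPKM in control kidneys and 0.383% to 0.489% in adenine kidneys, and 0.0514% to 0.0652% in sham and 0.526% to 0.557% in UUO kidneys.

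The summed level of markers of the injured tubule was higher in both models, though not every marker rose under adenine. The summed level of urothelial markers was high in the UUO group. The 7 markers of injured tubules (highest Vim, Lcn2 and Krt8) summed to an FPKM of 242 to 289.6 in control, 1604.5 to 1797 in adenine, 264 to 370.4 in sham and 1864 to 2070.5 in UUO kidneys, and 5 of 7 rose under adenine and 7 of 7 after UUO. The 7 urothelial markers (highest Krt15, Upk3a and Krt14) summed to at most 8.96 in control, 7.78 in adenine and 2.96 in sham kidneys and to 167 to 209.9 in UUO kidneys, where 7 of 7 rose. Of these 7 only Upk1a reached the minimum for a test in a sham kidney, so the count was to a large degree set by that minimum. Their part in the levels of S100a6, S100a10 and S100a11 was not tested.

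**Figure D2:**
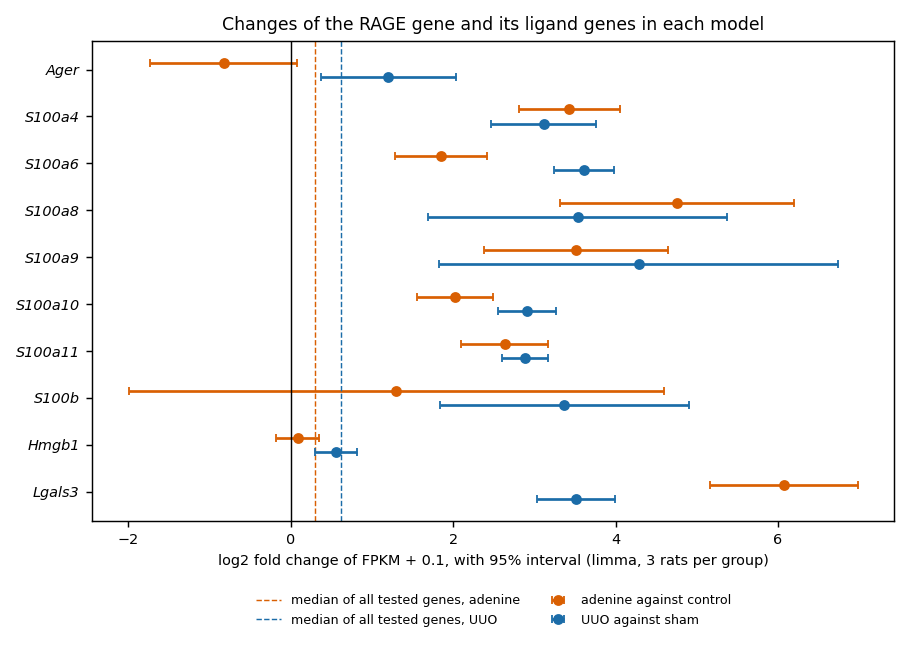
Log2 fold change of FPKM + 0.1 (horizontal axis) with its 95% interval from limma for each of the 10 genes, 3 rats per group, under adenine (orange) and the UUO model (blue), with dashed lines at the median of all tested entries (0.30 and 0.62). Lgals3 reached 6.07 under adenine against 3.51 after UUO, S100a6 1.85 against 3.61, and Ager lay on opposite sides of 0.

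S100b, known from Schwann cells, glia and fat cells, was the most uneven member in the adenine group. Its FPKM was 0.732, 0.152 and 1.21 in the control group and 14.7, 0.322 and 0.553 in the adenine group, so that 1 adenine kidney was far above the rest and the other adenine kidneys lay within the control range. The log2 fold change was 1.30 (SE 1.38, 95% interval -1.99 to 4.59, adjusted p = 0.444) and was -0.31 without adenine 1 (adjusted p = 0.746). After UUO its FPKM was 0.381, 0.554 and 0.784 in the sham group and 18.5, 5.26 and 3.00 in the UUO group, so all obstructed kidneys were above sham. S100b rose by 3.37 (SE 0.64, 95% interval 1.84 to 4.90, adjusted p = 0.00301), and by 2.64 without UUO 1, the highest sample.

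Adenine 1 and UUO 1, the highest of their groups in S100b, were also the highest of their groups in summed fat cell markers. Control 3 and sham 3, the highest of their groups in S100b, had the lowest summed FPKM of fat cell markers in those groups (66.0 and 43.1). Adipoq, which encodes adiponectin, had an FPKM of 15.5, 8.36 and 8.74 in the control group and 128, 4.31 and 3.78 in the adenine group, and 9.59, 15.6 and 9.46 in the sham group and 49.9, 4.51 and 5.10 in the UUO group. Plin1 (perilipin-1, chosen after its values were seen) had an FPKM of 92.6 in adenine 1 and 14.1 in UUO 1 and of at most 0.0656 in the other kidneys of those groups. The summed FPKM of the 5 fat cell markers was 66.0 to 155 in control, 1926, 472 and 656 in adenine 1, 2 and 3, 43.1 to 78.8 in sham, and 412, 30.9 and 85.5 in UUO 1, 2 and 3. Fabp4, a fatty acid carrier, made up most of this sum in the adenine kidneys and rose there with all kidneys above control, while Cidec, a lipid droplet protein, fell after UUO.

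Adenine 1 and UUO 1 were also the highest of their groups in Ager. Over the 12 samples with each group's mean taken out, S100b ranked 63 of 13485 symbols by its correlation with Ager (Pearson r = 0.85), a description over points that share their libraries. The part of fat cells in the S100b and Ager results was not tested, beyond the values without these libraries. The summed FPKM of 6 Schwann cell markers was 2.33 to 2.64 in control, 4.30 to 7.03 in adenine, 1.71 to 2.96 in sham and 5.19 to 6.09 in UUO kidneys, and included Mbp, the gene of a myelin protein. Sox10, Cdh19 and Gfap, which mark Schwann cells and glia more narrowly (named after their values were seen), were at or below an FPKM of 0.184 in all 12 kidneys.

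**Figure D3:**
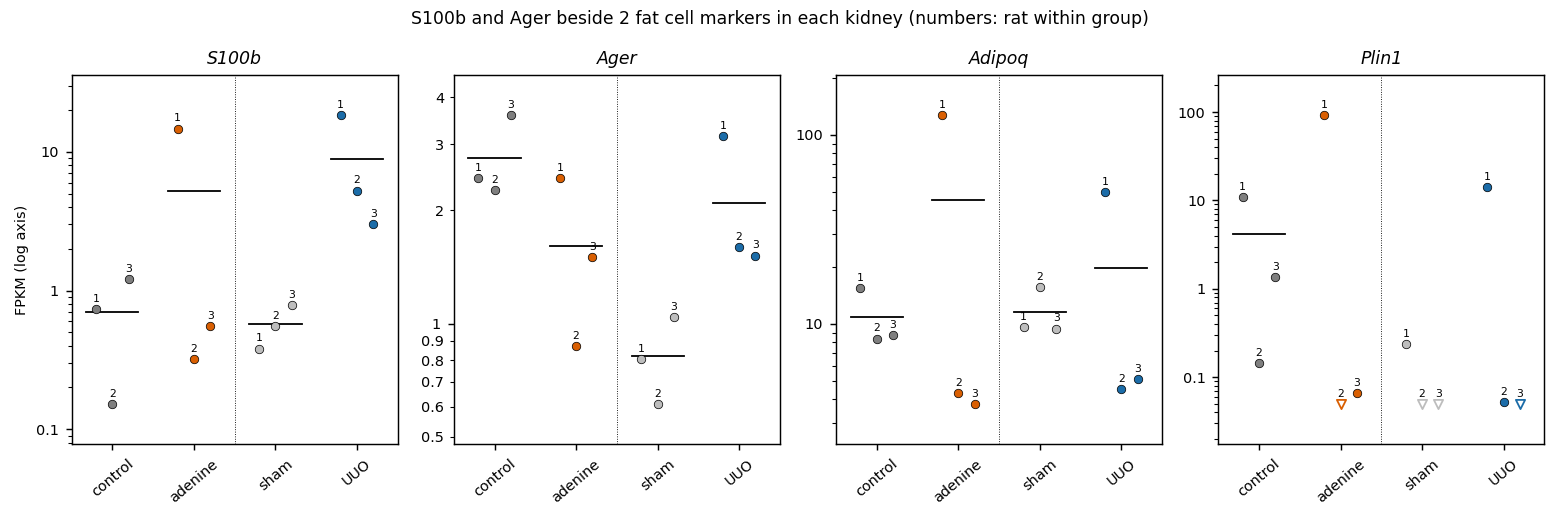
FPKM on a log axis of S100b, Ager and the fat cell markers Adipoq and Plin1 in each of the 12 kidneys, with the number of the rat within its group, lines at the mean of 3 rats where all 3 values are at least 0.05, and open triangles for values under 0.05. Adenine 1 and UUO 1 are the highest of their groups in all 4 genes.

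Hmgb1 encodes a chromatin protein of most nuclei that acts as a danger signal outside the cell, and it had the smallest changes of the 10 genes. Its FPKM was 14.8, 16.4 and 14.4 in the control group and 14.9, 16.0 and 17.5 in the adenine group, with means of 15.2 ± 1.06 and 16.1 ± 1.30 (SD, n = 3). The groups overlapped, and the log2 fold change was 0.08 (SE 0.11, 95% interval -0.18 to 0.35, adjusted p = 0.543), turning to -0.21 under median-of-ratios scaling and -0.11 under quantile normalization. With FPKM rescaled to the same sum Hmgb1 rose by 0.352 (adjusted p = 0.0342), so its sign and call under adenine depended on the scaling. After UUO its FPKM was 17.4, 16.4 and 16.0 in the sham group and 22.9, 22.7 and 28.0 in the UUO group, with means of 16.6 ± 0.717 and 24.5 ± 2.95.

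All obstructed kidneys were above all sham kidneys in Hmgb1, a rise of 0.56 (SE 0.11, 95% interval 0.29 to 0.82, adjusted p = 0.00354) on the deposited scale that was below the median of all tested entries (0.62), and that was -0.042 under median-of-ratios scaling and 0.09 under quantile normalization (adjusted p = 0.747 and 0.492). A rise of Hmgb1 beyond the shift of all entries was therefore not shown. Rodent genomes hold many processed copies of Hmgb1, and how reads shared with them were assigned is not given in the sources used here. Hmgb2, its relative in dividing cells, rose by 1.32 under adenine (SE 0.29, adjusted p = 0.00698) and 1.71 after UUO (SE 0.21, adjusted p = 0.000442). Hmgb3 rose by 0.52 under adenine (adjusted p = 0.0326). In the UUO table it was listed at 8.54, 0.144 and 0.0001 in the sham group against 17.3, 11.7 and 17.0 in the UUO group, and it passed the test (adjusted p = 0.0292).

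Lgals3 encodes galectin-3, a sugar-binding protein of macrophages and injured epithelium that is also described as a receptor and ligand for glycated proteins. Its FPKM was 8.61, 24.3 and 14.5 in the control group and 1265, 745 and 1007 in the adenine group, with means of 15.8 ± 7.93 and 1006 ± 260.0 (SD, n = 3). After UUO it was 15.2, 15.8 and 18.4 in the sham group and 247, 191 and 142 in the UUO group, with means of 16.5 ± 1.71 and 193 ± 52.9. Lgals3 rose by a log2 fold change of 6.07 under adenine (SE 0.38, adjusted p = 5.77e-05), higher than that of 99.7% of tested entries, and by 3.51 after UUO (SE 0.20, adjusted p = 2.49e-05). From a level like that of Hmgb1 in control kidneys it became the member with the second highest mean in the adenine group, where its values overlapped those of S100a11.

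Macrophage markers (highest C1qa, C1qc and Cd68) were also higher in both models, and their part in the Lgals3 result was not tested. Their summed FPKM was 55.2 to 61.6 in control, 1229.9 to 1684 in adenine, 62.3 to 76.5 in sham and 723 to 1118 in UUO kidneys, and 9 of 10 were tested and rose in each model, 7 of which reached the minimum in a control or sham kidney, with Marco at the lowest value of the table in all sham and UUO kidneys. T cell markers (highest Cd4, Cd3g and Lck) summed to 10.1 to 16.9, 124 to 128, 15.2 to 21.8 and 129.9 to 289, and 7 of 7 rose in each model.

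The difference between the models was tested for each gene as the log2 fold change in UUO minus that in adenine, with p adjusted over 13486 symbols tested once in each table. The difference passed for 5 of the 10 genes, against 27.0% of symbols in either direction, with 4 higher in UUO (21.7% of symbols) and 1 lower (5.25%). It was 2.03 for Ager (95% interval 0.92 to 3.14, adjusted p = 0.0121), 1.76 for S100a6 (1.15 to 2.37, adjusted p = 0.00116) and -2.56 for Lgals3 (-3.49 to -1.63, adjusted p = 0.00148). These 3 passed under each of the 22 alternatives tried. S100a10 (0.89, 95% interval 0.36 to 1.42, adjusted p = 0.0183) and Hmgb1 (0.47, 0.14 to 0.81, adjusted p = 0.0396) did not pass under median-of-ratios scaling (0.59 and 0.17), which takes out much of the difference between the shifts of all entries. Hmgb1 also did not pass without any 1 of control 1, control 2, adenine 1, adenine 2, sham 2, sham 3 or UUO 3 (adjusted p 0.0501 to 0.0964), and S100a10 without adenine 1 and UUO 1 together (adjusted p = 0.0601).

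No difference between the models was shown for the other 5 ligand genes. The interval was -1.13 to 0.50 for S100a4 and -0.30 to 0.79 for S100a11. It was much wider for S100a8 (-3.33 to 0.89), S100a9 (-1.67 to 3.22) and S100b (-1.20 to 5.35). For S100b the difference was 3.68 without adenine 1 (adjusted p = 0.0207) and 2.95 without adenine 1 and UUO 1 (adjusted p = 0.0362), so the call depended on adenine 1.

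By mean FPKM in the control group the order was S100a11, S100a10, S100a6, Lgals3, Hmgb1, S100a4, Ager and then S100a9, S100b and S100a8, in which S100a11 overlapped S100a10, Lgals3 overlapped Hmgb1 and the last 3 overlapped each other in turn. The sham group had the same leading genes, with Hmgb1 before Lgals3, which overlapped, and Ager, S100b, S100a9 and S100a8 overlapping at the low end. In the UUO group the order was S100a11, S100a10, S100a6, Lgals3, S100a4 and Hmgb1, each separate from the next, followed by S100a9, S100b, S100a8 and Ager, which overlapped in turn. In the adenine group it was S100a11 and Lgals3, which overlapped, then S100a10, S100a6 and S100a4, each separate from the next, and then Hmgb1, S100a9, S100a8, S100b and Ager, which overlapped in turn.

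The S100 members on chromosome 2 lie among relatives, some of which moved the other way. In the RefSeq order S100a4 and S100a6 are separated by S100a5, and S100a8 and S100a9 are next to each other, while S100a11 and S100a10 form a neighbouring pair 55 coding genes further on. S100a1, a regulator of calcium handling in muscle at one end of the same cluster, fell in both models. Its FPKM was 104, 100.4 and 139 in the control group and 23.1, 30.3 and 24.6 in the adenine group (log2 fold change -2.13, SE 0.17, adjusted p = 0.000118), and 93.7, 125 and 73.2 in the sham group and 25.4, 30.2 and 27.3 in the UUO group (-1.78, SE 0.19, adjusted p = 0.000236). S100g, the calbindin of calcium-transporting tubules, on chromosome X, fell by 2.46 on the log2 scale under adenine (adjusted p = 0.00201) and by 3.47 after UUO (adjusted p = 0.00013).

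S100a13, next to S100a1, and S100a16, beyond it, had log2 fold changes of -0.34 and 0.03 under adenine (adjusted p = 0.162 and 0.874) and rose by 0.68 and 1.42 after UUO (adjusted p = 0.00129 and 5.1e-05). Of the S100 genes outside the set, 4 were thus tested in each table, with 0 rises and 2 falls under adenine and 2 rises and 2 falls after UUO. Of all tested entries 39.6% rose and 19.9% fell under adenine, and 56.1% rose and 14.4% fell after UUO. The remaining S100 genes were too low to test, and S100a7l2 was at the lowest value of the table in all sham and UUO kidneys.

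**Figure D4:**
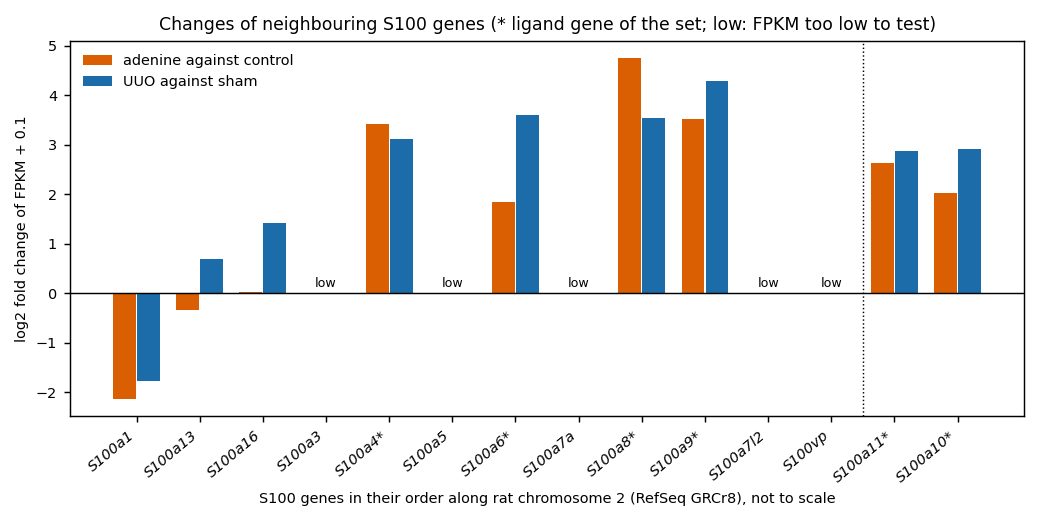
Log2 fold change of FPKM + 0.1 (vertical axis) under adenine (orange) and UUO model (blue) for S100 genes in their order along chromosome 2 of GRCr8, not to scale, with members marked by an asterisk and "low" for genes not tested. S100a1 fell in both models, by 2.13 and 1.78 on the log2 scale, while the 6 members of this chromosome in the plot rose in both, and the dotted line stands for the 55 coding genes before S100a11.

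Galectins and annexins, the families of Lgals3 and of S100 partners, were followed as further lists. Of all tested entries 39.6% rose and 19.9% fell under adenine (median 0.30), and 56.1% rose and 14.4% fell after UUO (median 0.62). Of 5 other galectins tested in each table, 4 rose under adenine and 5 after UUO, with medians of 1.58 and 2.06 on the log2 scale. Lgals1, which encodes galectin-1, rose by 3.87 (SE 0.26, adjusted p = 6.63e-05) and 3.03 (SE 0.31, adjusted p = 0.000192), and Lgals9 by 1.58 and 3.33. Lgals2 rose by 3.67 and 2.06, but in the adenine table it was tested through the adenine group alone, and without it 3 of 4 rose with a median of 1.06. Lgals5 had a log2 fold change of -1.19 under adenine (adjusted p = 0.165) and rose by 1.07 after UUO. Of annexins, 7 of 10 tested rose and 1 fell under adenine, and 9 of 11 rose and 1 fell after UUO, with medians of 1.80 and 2.19.

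Among annexins, Anxa3 rose by 2.50 and 3.34, close to Anxa2. Anxa13, an annexin of epithelial brush borders, fell by 5.55 on the log2 scale under adenine (SE 0.49, adjusted p = 0.00018) and by 5.00 after UUO (SE 0.51, adjusted p = 0.00018). Anxa8 was too low to test in the adenine table, at an FPKM of at most 0.573, and in the UUO table its FPKM was 0.274 and 0.502, with 0.0001 in sham 3, in the sham group and 26.8, 48.8 and 27.7 in the UUO group (adjusted p = 0.000137).

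Most receptors that share ligands with RAGE rose in both models. Of 12 such genes tested under adenine 12 rose, with a median log2 fold change of 3.03, and of 13 tested after UUO 12 rose, with a median of 3.13, or 11 of the 12 that reached the minimum for a test in a sham kidney. The share of all tested entries that rose was 39.6% under adenine and 56.1% after UUO. Olr1, a scavenger receptor for oxidized lipoprotein, rose by 6.06 (SE 0.56, adjusted p = 0.000207) and 4.57 (SE 0.24, adjusted p = 1.9e-05). Cd44, the hyaluronan receptor, rose by 4.82 and 3.78, the myeloid receptor Cd33 by 5.20 and 3.71, and the macrophage scavenger receptor Msr1 by 3.62 and 1.83. Tlr4 and Tlr2, named after their values were seen, rose by 2.38 and 3.16 under adenine and by 3.24 and 3.10 after UUO. Emb, a receptor described for S100A8 and S100A9 and named for the same reason, rose by 1.49 under adenine and had a log2 fold change of -0.23 after UUO (adjusted p = 0.158).

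Genes that shed RAGE, remove precursors of its glycated ligands or couple it to signalling had median log2 fold changes of 1.11 under adenine and 0.98 after UUO. Of 10 tested, 9 rose under adenine and 9 rose and 1 fell after UUO, where 39.6% and 56.1% of all tested entries rose. The medians of all tested entries were 0.30 and 0.62. Under median-of-ratios scaling the medians of the list were 0.82 and 0.38, against 0.01 and 0.03 for all tested entries. Mmp9, a protease able to shed RAGE, rose by 4.74 under adenine (SE 0.86, adjusted p = 0.00335), with an FPKM of 192, 45.7 and 140.4 against 8.17, 1.04 and 6.76, and fell by 1.27 on the log2 scale after UUO (SE 0.42, adjusted p = 0.0306). The adaptor Tirap rose by 1.66 and 1.34, and the kinases Jak2 and Src rose by 1.20 and 1.00 under adenine and by 1.46 and 1.29 after UUO. Diaph1 and Glo1, the RAGE-binding formin and the glyoxalase that removes precursors of glycation (named after their values were seen), had log2 fold changes of 0.89 (adjusted p = 0.00033) and 0.06 (adjusted p = 0.647) under adenine and of 0.79 (adjusted p = 0.000307) and 0.31 (adjusted p = 0.0325) after UUO.

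Among signal transducers of RAGE, 14 of 17 tested rose and 1 fell under adenine and 13 of 16 rose and 1 fell after UUO, with medians of 1.42 and 1.40. Rises made up 39.6% and 56.1% of all tested entries in these models, and falls 19.9% and 14.4%. Cybb, the catalytic subunit of the phagocyte NADPH oxidase, rose by 5.95 (SE 0.29, adjusted p = 2.9e-05) and 3.16 (SE 0.11, adjusted p = 8.66e-06), and Prkcb, a protein kinase C isoform, by 4.10 and 2.34, although no control or sham kidney reached the minimum for Prkcb. Without it 13 of 16 rose under adenine (median 1.13) and 12 of 15 after UUO (1.35). Pik3cd, a leukocyte phosphoinositide kinase subunit, rose by 2.66 and 2.48, and Relb, an NF-kappaB subunit, by 2.13 and 2.27. The gene that fell was Nox4, the NADPH oxidase of tubules, by 1.78 and 1.59 on the log2 scale (adjusted p = 0.0166 and 0.0014).

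Among target genes of RAGE signalling, 12 of 13 tested rose under adenine and 11 of 12 after UUO, with medians of 2.63 and 2.71, and the remaining gene, Vegfa, fell by 1.25 and 0.63 on the log2 scale (adjusted p = 0.000772 and 0.0125). Fn1 (fibronectin) rose by 5.46 (SE 0.45, adjusted p = 0.00014) and 3.47 (SE 0.23, adjusted p = 3.65e-05), with an FPKM of 825, 278 and 568 in the adenine group against 8.29, 18.4 and 9.76 in the control group. Of the target genes that reached the minimum in a control or sham kidney, 10 of 11 rose in each model, with medians of 2.92 and 2.72. The chemokine gene Ccl2 rose by 3.19 and 3.65, and Tgfb1 by 3.63 and 2.84. The background of rises in the whole table was 39.6% under adenine and 56.1% after UUO, and many of these genes have other regulators.

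**Figure D5:**
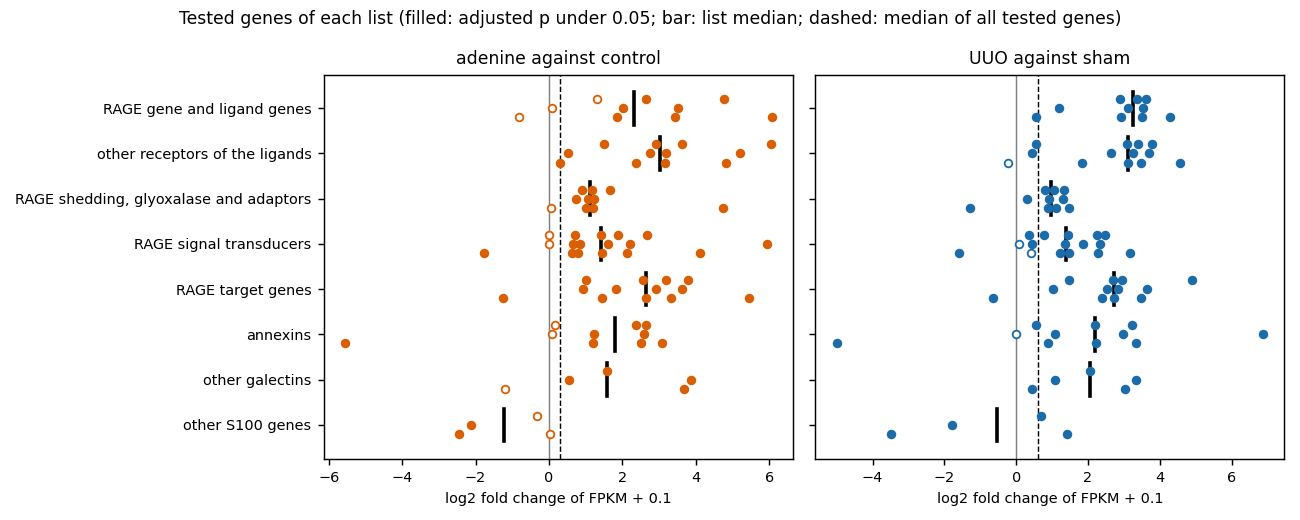
Log2 fold change of FPKM + 0.1 (horizontal axis) of each tested gene, by list (rows), under adenine (left) and the UUO model (right), with filled points for an adjusted p under 0.05, black bars at list medians and a dashed line at the median of all tested entries. The lists of RAGE target genes and other receptors have medians of 2.63 and 3.03 under adenine, while other S100 genes have a median of -1.24.

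The genes whose pattern within groups was most like that of 4 members were looked for over the 12 samples and 13485 symbols, after each group's mean was taken out. They were Ano8, Ushbp1 and Nrbp2 for Ager (Pearson r = 0.97, 0.95 and 0.95), and Ankrd53, Map6 and Rnf144a for S100b (0.98, 0.96 and 0.94). They were Loxl2, Glrx2 and Tmem256 for S100a8 (0.94, 0.94 and 0.92), and AC127920, Nxt2 and Ctps2 for Hmgb1 (0.96, 0.95 and 0.95). Within the set the closest pairs were Ager with S100b (0.85), Lgals3 with S100a11 (0.81) and S100a6 with S100a11 (0.73), whereas S100a8 and S100a9 had a value of 0.50. These values share libraries and have few degrees of freedom, and are given as a description.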

How the data were processed

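Kidney RNA of 12 rats in 4 groups of 3 was measured by poly(A) RNA-seq with strand marking. The authors deposited FPKM values per gene in 2 tables (control with adenine, sham with UUO), made after trimming, mapping and merging transcripts. The submitters' processing notes name cutadapt 1.9, HISAT2 2.0.4, StringTie 1.3.4d, edgeR and DESeq2, and the genome build is not given in the sources used here. Depth is unknown, and the spread between 3 rats gives the precision. Samples were grouped by their labels.

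Each table was fitted alone with limma 3.58.1 (lmFit, eBayes with trend) in R 4.3.3 on log2(FPKM + 0.1), for entries that reached 0.5 FPKM in 3 or more of the 6 samples, with Benjamini-Hochberg adjustment over the table. The pseudocount understates changes of low genes. The difference between models was divided by the root of the summed squared standard errors and read on the summed degrees of freedom. An exact two-sided permutation test of 3 against 3 samples cannot give p below 0.1, and gave 0.1 wherever groups did not overlap, 0.3 for Ager, 0.4 for Hmgb1 and 0.7 for S100b under adenine. In simulated data 177 of 200 genes changed by a log2 fold change of 3 were recovered as DEGs in the adenine table of 15029 entries and 181 of 200 in the UUO table of 15043. Unlike the real tables, the simulated ones had only these 200 genes changed and no shift of all entries. Smaller changes were not simulated, so these shares do not apply to them.

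The members and gene lists were chosen with earlier results of these data known. Named genes are all members, the 4 of each list with the largest change, the 3 most abundant of each marker list with any at the lowest value of a table throughout, the 3 symbols most like Ager, S100a8, S100b and Hmgb1, and others marked as chosen after their values were seen. Of the genes this rule names, 3 are not reported here singly, and they remain in the counts, medians and sums of their lists. Alternatives were other pseudocounts, filters and scalings, no trend, a replicate block and leaving out each sample.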

Additional observations from a re-analysis of the deposited data

Results flagged for a closer look

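The log2 fold change differed between the UUO and adenine models, by the test of the difference itself, for 5 of the 10 genes. The value in UUO minus that in adenine was 2.03 for Ager, 1.76 for S100a6, 0.89 for S100a10, 0.47 for Hmgb1 and -2.56 for Lgals3. The models differ in agent, surgery and duration (3 and 2 weeks), and the 2 tables were normalized separately, so these cannot be told apart.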

How the results depend on the processing

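Of 518 single-gene values under the alternatives (30 values of the 10 genes), 485 kept their direction and side of the threshold, 21 no longer passed, 6 newly passed and 6 reversed. The reversed values were log2 fold changes of Hmgb1 in the adenine model (-0.21 under median-of-ratios scaling, -0.11 under quantile normalization) and in the UUO model (-0.042 under median-of-ratios scaling), S100b in the adenine model (-0.31 without adenine 1, and up to 2.26 without other samples), and the differences between models of S100a11 (-0.055 under median-of-ratios scaling) and S100a9 (-0.31 without sham 3, and up to 1.39 without other samples). The number of genes that differed between the models was 3 under median-of-ratios scaling, against 5, and 4 to 5 when 1 sample was left out. The Hmgb1 difference no longer passed under 13 of 22 alternatives.

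Leaving out 1 sample gave 5 to 7 DEGs and 7 to 8 passing genes in the adenine model, and 8 DEGs and 9 to 10 passing genes in the UUO model. Of all DEGs, 68.0% were upregulated under adenine and 75.8% after UUO. Under median-of-ratios scaling these were 57.7% and 56.7%, and under quantile normalization 52.8% and 50.9%. Passing genes in the pathway and family lists numbered 58 to 67 (65 as reported) and 55 to 69 (69 as reported).

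The replicate numbers gave no sign of pairing (correlations of same-numbered samples -0.12 to -0.05 in the adenine table and 0.05 to 0.11 in the UUO table). With the replicate number as a block the DEGs numbered 6 and 8 and the passing genes 7 and 10 as without it, and the Hmgb1 difference did not pass (adjusted p = 0.0777), leaving 4 genes that differed. S100b was not tested in the adenine table at a minimum FPKM of 1. The number of samples limits the precision, and the causes of these changes were not tested.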
